A study of Mus musculus with 4 samples.

Results

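Glycogen genes were examined in mouse ES cells depleted of the zinc finger protein Zfp322a. The group held 9 genes, namely Ugp2, Gyg, Gys1, Gbe1 and Ppp1r3c on the side of glycogen synthesis and Pygl, Pygb, Pygm and Phka2 on the side of glycogen breakdown. They were represented by every probe set whose single gene symbol in the platform annotation was one of these names, which gave 18 of 45037 probe sets and 9 of 18193 genes. E14 cells, a mouse ES cell line, were grown with serum and LIF and transfected by lipofection. The 2 control RNAi samples (mock knock-down) received pSuper.puro, and the 2 Zfp322a RNAi samples received a plasmid of the same kind that expressed a short hairpin RNA against Zfp322a. Puromycin selection lasted 3 days by the labels (the study's methods give a longer time for the arrays) and was applied to both groups, so each sample is a pool of transfected cells and not a clone. The sources do not say which hairpin was used for the arrays. Total RNA was hybridised to Affymetrix mouse arrays, and the values below are log2 RMA values, in which a step of 1 is a doubling of probe set signal.

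The glycogen genes were chosen by function with the log2 changes of this comparison already known. Their changes are therefore a description, and neither their counts nor their p-values count as independent evidence. The adjusted p-values come from limma fitted across all probe sets or all genes, and a gene or probe set was called where the adjusted p was under 0.05. The labels do not state whether replicates were separate cultures, so the p-values measure a spread between samples that may be technical.

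Glycogen is a branched store of glucose in the cytosol. It is built from UDP-glucose, which UDP-glucose pyrophosphorylase (Ugp2) makes from glucose 1-phosphate. Glycogenin (Gyg) primes the chain on itself, glycogen synthase (Gys1 in most tissues, Gys2 in liver) lengthens it and the branching enzyme (Gbe1) adds branch points. Glycogen phosphorylase releases glucose 1-phosphate from chain ends and exists in liver (Pygl), brain (Pygb) and muscle (Pygm) forms. Phosphorylase kinase, of which Phka2 is a regulatory alpha subunit, switches phosphorylase on. Protein phosphatase 1, brought to the particle by subunits such as Ppp1r3c, reverses these phosphorylations and favours synthesis. Cultured cells, ES cells among them, can hold glycogen, and several of these genes are known to respond to hypoxia in other cells.

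The targeted gene, Zfp322a, fell on both of its probe sets. The first read 8.75 and 8.84 in control RNAi and 7.53 and 7.13 in Zfp322a RNAi, which left 36.2% of the control level (adjusted p = 0.00220). The second read 8.82 and 8.89 against 7.08 and 6.89, which left 27.4% (adjusted p = 9.35e-04). Array medians lay between 6.07 and 6.11, arrays of a group correlated at 0.998 over all probe sets and arrays of different groups at 0.989 to 0.990. Of 8 ES cell markers, 3 were lower and 0 higher, beside 14.4% of all genes called lower. The lower ones were Tfcp2l1 (log2 change -0.875), Tdgf1 (-0.59) and Esrrb (-0.41). Not called were Pou5f1 (-0.055), Nanog (-0.025), Sox2 (0.015), Zfp42 (0.06) and Dppa5a (-0.16). The mean level of the 8 markers was 12.56 to 12.60 in control RNAi and 12.32 to 12.33 in Zfp322a RNAi.

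Breakdown genes lay lower in Zfp322a RNAi cells, led by Pygl, which fell to 35.7% of its control level. Pygb and 1 probe set of Phka2 fell as well, whereas Pygm did not pass the test. On the synthesis side, Gys1 and 1 of the 2 Gyg probe sets fell, Gbe1 rose 1.77-fold, and no probe set of Ugp2 or Ppp1r3c passed the test across probe sets. Of the 18 probe sets, 6 were lower, 1 was higher and 11 were not called. Over all 45037 probe sets, 9.47% were called lower and 10.6% higher. In bulk RNA of this kind, fewer cells of a type and less RNA per cell cannot be told apart.

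Promoter sequence is shown for the phosphorylases that fell (Pygl and Pygb), for glycogen synthase (Gys1) and for the branching enzyme (Gbe1), because they include the strongest called fall and the called rise on the opposite sides of glycogen turnover. The 250 bases before the RefSeq transcription start (GRCm38.p6) are given 5′ to 3′ on the strand of the gene. These are chr12:70227684-70227933 (minus strand) for Pygl, chr2:150786546-150786795 (plus strand) for Pygb, chr7:45434589-45434838 (plus strand) for Gys1 and chr16:70313699-70313948 (plus strand) for Gbe1. Capitals mark ACGTG or GCGTG on either strand, the core letters of the hypoxia response element.
Pygl: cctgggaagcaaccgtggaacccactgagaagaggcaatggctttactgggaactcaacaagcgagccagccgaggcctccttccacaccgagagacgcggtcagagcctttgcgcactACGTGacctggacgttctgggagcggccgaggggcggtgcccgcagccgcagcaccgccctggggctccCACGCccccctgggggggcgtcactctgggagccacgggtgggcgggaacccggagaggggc
Pygb: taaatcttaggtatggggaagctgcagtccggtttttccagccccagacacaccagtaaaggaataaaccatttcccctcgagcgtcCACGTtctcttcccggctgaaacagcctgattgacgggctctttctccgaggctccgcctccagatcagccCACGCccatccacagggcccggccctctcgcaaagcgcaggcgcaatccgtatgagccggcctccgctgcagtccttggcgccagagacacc
Gys1: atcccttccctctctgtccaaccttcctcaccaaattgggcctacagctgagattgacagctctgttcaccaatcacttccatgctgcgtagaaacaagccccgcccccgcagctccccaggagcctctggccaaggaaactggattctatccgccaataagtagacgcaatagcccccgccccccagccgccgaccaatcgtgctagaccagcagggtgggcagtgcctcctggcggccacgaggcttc
Gbe1: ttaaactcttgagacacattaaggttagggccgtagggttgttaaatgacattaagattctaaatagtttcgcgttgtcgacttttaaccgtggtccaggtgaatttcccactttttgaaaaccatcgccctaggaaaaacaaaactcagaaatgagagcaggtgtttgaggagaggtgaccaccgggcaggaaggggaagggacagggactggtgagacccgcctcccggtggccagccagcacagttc

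The window searched ran from 250 bases before to 50 bases after the start, and the 9 genes had 10 such windows because Ugp2 has 2 starts. ACGTG was present in 6 of the 10 windows, against 19.6% of all 32851 mouse promoter windows of this length. GCGTG was present in 7 of 10, against 32.4% of all windows. The E-box letters CACGTG, which contain ACGTG on both strands, were present in the windows of Gyg and Ppp1r3c, 2 of 10, against 7.15% of all windows. The 3 phosphorylase windows each held 1 ACGTG and 1 GCGTG, and the Phka2 window held GCGTG alone. On the synthesis side, the first Ugp2 start held 1 ACGTG and 5 GCGTG, Gyg 2 and 1, and Ppp1r3c 3 and 1. The windows of Gys1, Gbe1 and the second Ugp2 start held neither. Gbe1, which rose, and Gys1, which fell, were thus alike in this count. A match of letters describes the window and does not show a bound site, and the arrays do not measure binding.

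**Figure D1:**
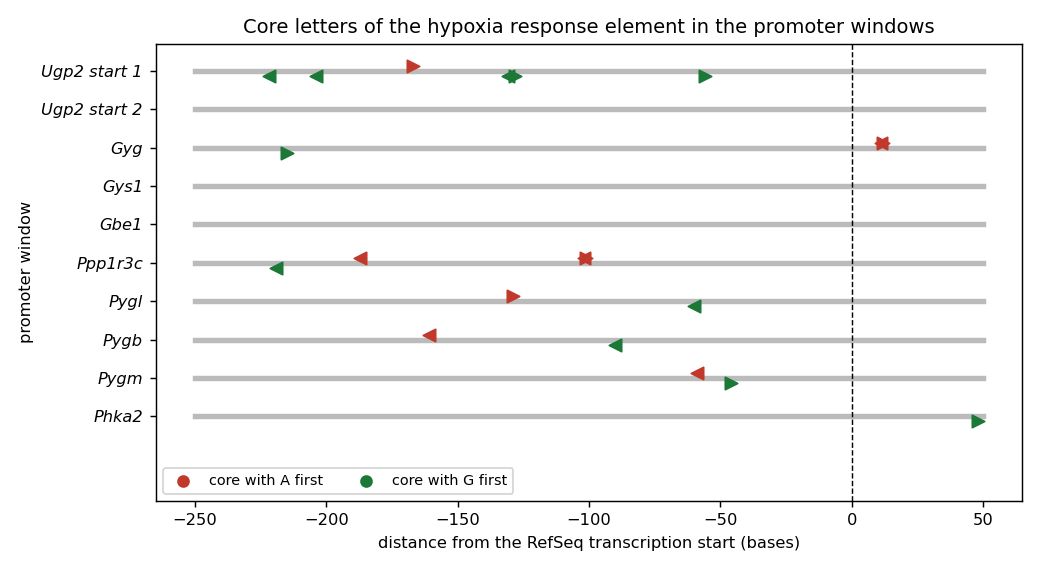
Positions of ACGTG (red, A first) and GCGTG (green, G first) in the 10 promoter windows, with distance from the RefSeq transcription start in bases on the x axis and 1 grey line per window. Triangles point right for the strand of the gene and left for the other strand. Star shapes in Gyg and Ppp1r3c are opposed ACGTG triangles that overlap, where the letters CACGTG read alike on both strands. The lines of Gys1, Gbe1 and Ugp2 start 2 carry no mark.

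Ugp2, which supplies UDP-glucose, had 5 probe sets and none was called. The brightest read 10.09 and 9.97 in control RNAi and 10.12 and 10.07 in Zfp322a RNAi. Its change was 0.065 ± 0.08 (SE, n = 2 per group) on the log2 scale, with a 95% interval of -0.14 to 0.27 and an adjusted p of 0.648. The groups overlapped on this probe set, which is of a type that can share probes with related transcripts. With such probe sets left out, Ugp2 changed by 0.165 over genes and was not called by limma (adjusted p = 0.125). That value came from a probe set on which the groups did not overlap. Over the 5 probe sets the changes ran from -0.11 to 0.17, with adjusted p from 0.189 to 0.648.

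Gyg, the primer protein, had 2 probe sets. The brighter read 9.13 and 9.15 in control RNAi and 8.72 and 8.78 in Zfp322a RNAi, a fall of 0.39 ± 0.08 on the log2 scale to 76.3% of control (adjusted p = 0.0176). The other read 8.34 and 8.44 against 8.18 and 8.07, at 83.2% of control (adjusted p = 0.0826). Both Zfp322a RNAi arrays were below both control arrays on each probe set. The brighter one is of a type that can share probes with related transcripts, and with such probe sets left out Gyg was no longer called over genes (adjusted p = 0.0541).

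Gys1, glycogen synthase itself, fell on both of its probe sets. The brighter read 7.64 and 7.80 in control RNAi and 7.35 and 7.34 in Zfp322a RNAi, a log2 change of -0.375 ± 0.09 that left 77.1% of control (adjusted p = 0.0309). The dimmer read 5.18 and 4.85 against 4.46 and 4.48, which left 68.5% (adjusted p = 0.0259). Neither probe set overlapped between the groups, and the dimmer lay below the array medians. Like the brighter Gyg probe set, the dimmer Gys1 one is of a type that can share probes with related transcripts. With such probe sets left out, Gys1 rested on its brighter probe set and was called over genes by limma (adjusted p = 0.0192).

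Gbe1, the branching enzyme, was the single glycogen gene of the 9 that was called higher. Its probe set read 4.62 and 4.60 in control RNAi and 5.46 and 5.40 in Zfp322a RNAi. The log2 change was 0.82 ± 0.08, with a 95% interval of 0.63 to 1.01 and an adjusted p of 0.00214. The spread within each group was far smaller than the gap between the groups, although all 4 values were below the array medians, where background takes a larger share of the signal.

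Ppp1r3c, the phosphatase subunit that favours synthesis, had 2 probe sets. The brighter read 6.54 and 6.73 in control RNAi and 6.21 and 6.34 in Zfp322a RNAi, at 77.9% of control. The adjusted p was 0.0518 across probe sets and 0.0359 across genes, so it was called only when 1 probe set was taken for each gene. The dimmer read 4.54 and 4.47 against 4.45 and 4.50, and its groups overlapped (adjusted p = 0.836). With the mean of both probe sets the gene was not called (adjusted p = 0.0847).

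Pygl, the liver form of phosphorylase, had the largest change among the 9 genes. It read 7.44 and 7.47 in control RNAi and 6.08 and 5.86 in Zfp322a RNAi. The group means were 7.46 ± 0.02 and 5.97 ± 0.16 (SD, n = 2). The log2 change was -1.49 ± 0.10 (SE), with a 95% interval of -1.72 to -1.25 and an adjusted p of 0.00118, and control exceeded Zfp322a RNAi 2.80-fold. Ranked by log2 change, Pygl stood at place 10 from the lowest of 18193 genes.

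Pygb, the brain form, read 8.10 and 7.97 in control RNAi and 7.59 and 7.56 in Zfp322a RNAi. It fell by 0.46 ± 0.08 on the log2 scale to 72.7% of control (adjusted p = 0.0139). Pygm, the muscle form, read 5.39 and 5.45 against 5.17 and 5.38, a change of -0.145 with a 95% interval of -0.38 to 0.09 (adjusted p = 0.367), and ran from -0.25 to -0.04 when 1 array was left out. The Pygm groups did not overlap, but they were separated by less than the spread within Zfp322a RNAi, and all 4 values lay below the array medians. The intervals of Pygl and Pygb do not overlap, but the difference between these genes was not tested.

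Phka2, a regulatory subunit of the kinase that turns phosphorylase on, had 3 probe sets that differed in their change. The brightest read 8.60 and 8.84 in control RNAi and 8.31 and 8.42 in Zfp322a RNAi, at 78.2% of control (adjusted p = 0.0657 across probe sets and 0.0470 across genes). The next read 5.87 and 5.82 against 5.72 and 5.83, with overlapping groups (adjusted p = 0.615). The dimmest read 5.09 and 5.31 against 4.41 and 4.58 and fell by 0.71 ± 0.11 on the log2 scale, to 61.3% of control (adjusted p = 0.00815). The gene call of Phka2 was lost when each array was centred on its median (adjusted p = 0.0620), and its change was -0.235 without control RNAi replicate 2.

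**Figure D2:**
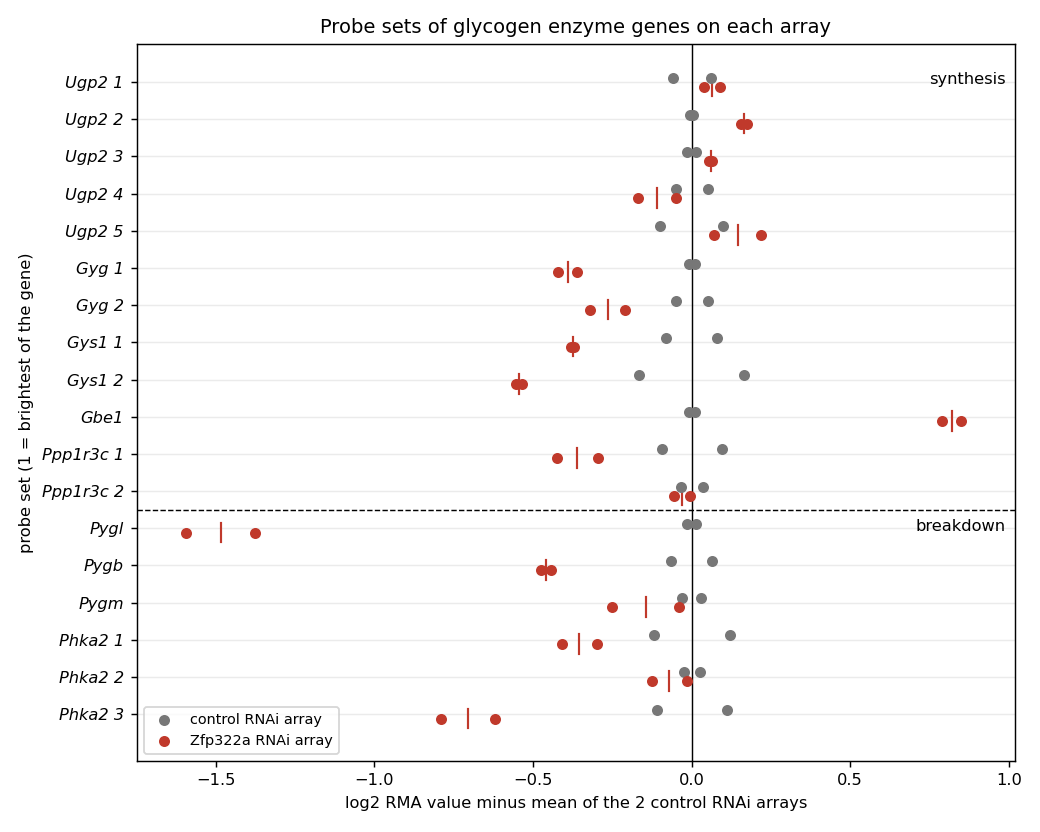
Distance of each array from the control RNAi mean in log2 RMA units (x axis) for the 18 glycogen probe sets, with 1 row per probe set, numbered from the brightest of its gene, synthesis genes above the dashed line and breakdown genes under it. Control RNAi is drawn in grey, Zfp322a RNAi in red with a tick at its mean, and Pygl stands apart on the left at a mean of -1.49 while Gbe1 stands apart on the right at 0.82.

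With 1 probe set per gene, the brightest, 6 of the 9 genes were lower, 1 was higher and 2 (Ugp2 and Pygm) were not called. Of all 18193 genes, 14.4% were called lower and 14% higher. The groups did not overlap for 8 of the 9 genes, against 62.6% of all genes. A difference of 1.5-fold or more, the rule named in the study's methods, was reached by 2 of the 9 (Pygl and Gbe1), against 8.25% of all genes. The median log2 change of the 9 genes was -0.36, beside -0.04 over all genes. Because the genes were chosen with these changes known, nothing is read from these counts. Leaving out any 1 array left 0 of all 45037 probe sets called by limma, so those fits say nothing about single calls. At an unadjusted p under 0.05 they gave 7 to 10 of the 18 probe sets, beside 10572 to 11509 of all 45037.

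**Figure D3:**
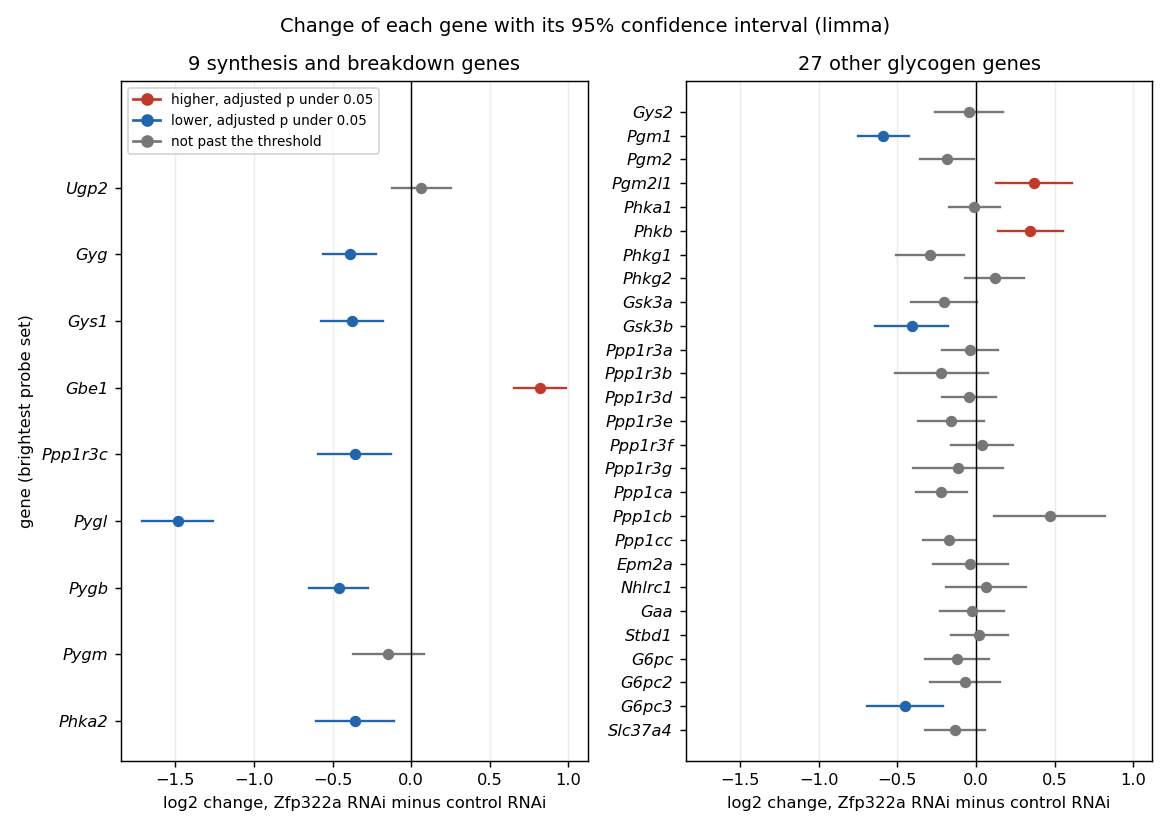
Log2 change (Zfp322a RNAi minus control RNAi) of the brightest probe set of each gene, with 95% intervals from limma across genes, for the 9 synthesis and breakdown genes (left) and 27 other glycogen genes (right). Red is called higher, blue called lower and grey not called, with Gbe1 at 0.82, Pygl at -1.49 and the intervals of Ugp2 and Pygm crossing 0.

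Synthesis was then set against breakdown within each array. The mean log2 value of the 5 synthesis genes, relative to its control mean, was -0.055 and -0.041 in the 2 Zfp322a RNAi arrays. That of the 4 breakdown genes was -0.62 and -0.60. The breakdown mean was lower than the synthesis mean by 0.565 and 0.562 in the 2 arrays, and these are differences on the log2 scale, given without a test. The contrast rested on Pygl and Gbe1. Without Pygl the mean difference was 0.272, without Gbe1 it was 0.346, and without both it was 0.055, with the remaining synthesis genes at a mean of -0.265 and the remaining breakdown genes at -0.32. The synthesis genes had a median change of -0.36 (3 lower, 1 higher, 1 not called) and the breakdown genes of -0.41 (3 lower, 0 higher, 1 not called).

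**Figure D4:**
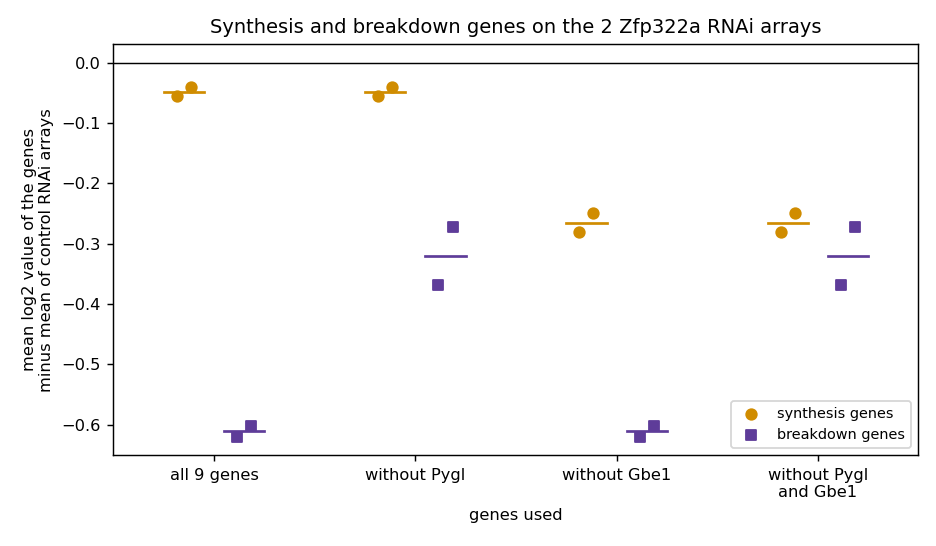
Mean log2 value of the synthesis genes (circles) and of the breakdown genes (squares) in each Zfp322a RNAi array, taken relative to control RNAi, with all 9 genes and without Pygl, Gbe1 or both. Lines are means of the 2 arrays, and the gap of 0.563 with all 9 genes narrows to 0.055 without both.

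Other genes of glycogen metabolism were listed by function. Of 27 such genes 2 were higher, 3 were lower and 22 were not called, beside 13030 of all 18193 genes not called. Their median log2 change was -0.07, beside -0.04 over all genes, and the groups did not overlap for 15, beside 62.6% of all genes. Pgm1, a phosphoglucomutase that interconverts glucose 1-phosphate and glucose 6-phosphate, read 8.35 and 8.35 in control RNAi and 7.76 and 7.76 in Zfp322a RNAi. It fell to 66.4% of control (adjusted p = 0.00247), the single one of the 27 past 1.5-fold. Its dimmer probe set changed by 0.07 (adjusted p = 0.789), and with the mean of its probe sets the gene changed by -0.26 and was not called. Pgm2 changed by -0.185 (adjusted p = 0.107). Pgm2l1, a related enzyme, was called higher at 0.37 over genes (adjusted p = 0.0371), but its 3 probe sets ran from -0.45 to 0.37 and none passed across probe sets.

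Of the 4 other phosphorylase kinase subunits, 1 was called, and it was higher. Phkb, the beta subunit, read 8.49 and 8.63 in control RNAi and 8.96 and 8.85 in Zfp322a RNAi, and rose to 127% of control (adjusted p = 0.0286). The alpha subunit Phka1 changed by -0.01 (adjusted p = 0.930), a sign that turned with the scaling of the arrays. The catalytic gamma subunits Phkg1 and Phkg2 changed by -0.295 (adjusted p = 0.0535) and 0.12 (adjusted p = 0.306).

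Among regulators, Gsk3b, a kinase that inhibits glycogen synthase, was called lower at -0.41 over genes (adjusted p = 0.0240). Its 6 probe sets disagreed, with 3 lower, 1 higher and 2 not called, and their mean changed by -0.154 (adjusted p = 0.118). G6pc3, a glucose 6-phosphatase catalytic subunit, read 7.53 and 7.56 against 6.97 and 7.22 and fell by 0.45 ± 0.10 on the log2 scale (adjusted p = 0.0204). None of the 6 other phosphatase targeting subunits, the 3 phosphatase catalytic subunits, the laforin and malin genes or the 2 lysosomal glycogen genes was called by limma. Of these, the 3 catalytic subunits had an unadjusted p under 0.05, with log2 changes of -0.22 for Ppp1ca, 0.47 for Ppp1cb and -0.17 for Ppp1cc, and 0 of the others did. Ppp1cb (adjusted p = 0.0582) was called higher under 5 alternatives, namely array centring, repeated quantile normalization, leaving out dim genes, a variance trend and the replicate block, with adjusted p from 0.0044 to 0.0463. Its change ran from 0.31 to 0.63 when 1 array was left out and was 0.249 with the mean of its probe sets (adjusted p = 0.161).

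Patterns most like that of Pygl were sought over the 4 arrays by the Euclidean distance between values taken relative to the control mean. The 5 nearest genes were Bst2 (distance 0.108), Liph (0.130), Zfp322a (0.137), Tmem40 (0.179) and Aire (0.180). Their log2 changes lay between -1.56 and -1.38. With 4 arrays in 2 groups, little beyond the size of the change can be compared.

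Markers of liver and skeletal muscle, tissues known for their own phosphorylase form, were read beside these values. Brain markers, which would match Pygb, were not listed. Fibroblast or feeder, endoderm and hypoxia-responsive genes were read as well. Of 4 hepatocyte markers measured, 0 were called by limma and 0 had an unadjusted p under 0.05, with mean levels of 5.47 to 5.67 in control RNAi and 5.56 to 5.64 in Zfp322a RNAi. Of 5 skeletal muscle markers, 1 was lower (Myh3), with means of 5.95 to 5.97 and 5.62 to 5.68. Of 6 fibroblast or feeder markers, 1 was lower (Thy1), with means of 5.11 to 5.19 and 4.98 to 5.00. These means lay below the array medians in all 4 arrays, but single markers did not. By mean level over the 4 arrays, 3 skeletal muscle, 1 hepatocyte and 1 fibroblast or feeder marker lay above the median of all values. Of 6 endoderm markers, 4 were higher, with a mean of 5.62 in control RNAi and 6.03 to 6.10 in Zfp322a RNAi. Of 17 hypoxia-responsive genes outside glycogen metabolism, 9 were lower, 1 was higher (Kdm3a) and 7 were not called. Their median log2 change was -0.325, with a mean level of 9.54 in control RNAi and 9.01 to 9.03 in Zfp322a RNAi. The 9 lower were Bnip3, Pdk1, Egln1, Egln3, Ankrd37, Higd1a, Ldha, Pgk1 and Aldoc. Not called were Vegfa, Car9, Ndrg1, Adm, P4ha1, P4ha2 and Slc2a1. Over all genes, 14.4% were called lower and 14% higher. These lists were chosen with earlier results of these data known, so nothing is read from their counts. The part of endoderm cells and of the hypoxia-responsive genes in the changes of Pygl, Gbe1 and the other glycogen genes was not tested.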

How the data were processed

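RNA of 4 samples of E14 cells, 2 control RNAi and 2 Zfp322a RNAi, was measured on Affymetrix mouse arrays. The authors extracted probe set values with RMA, and deposited them as log2 values. RMA equalises the arrays, so a shift of all genes together cannot be seen, and the number of arrays limits the precision. Probe sets were named from the platform annotation (34945 with a single symbol, 932 with several, 9160 with none, of 45037), with symbols updated through RefSeq for 34741. Limma 3.58.1 (lmFit and eBayes) in R 4.3.3 was fitted to the deposited values without a block, with 2 residual degrees of freedom, across all probe sets and across 18193 genes (the brightest single-symbol probe set of each). P-values were two-sided and adjusted by Benjamini-Hochberg, with a threshold of 0.05. The limma step alone was tested on simulated data. Named were the 9 glycogen genes with every probe set, Zfp322a, the other glycogen genes that passed the threshold or belong to phosphorylase kinase or phosphoglucomutase, and the 5 genes nearest to Pygl. Myh3, Thy1, the hypoxia-responsive genes, the ES cell markers and the phosphatase catalytic subunits were named after their values were seen. The glycogen genes and all lists were chosen with earlier results of these data known. Alternatives were array centring, repeated quantile normalization, leaving out dim or cross-hybridizing probe sets, the mean of the probe sets of a gene, a variance trend, the replicate number as a block, the 1.5-fold rule and leaving out each array. Leaving Pygl, Gbe1 or both out of the synthesis and breakdown means was added after seeing the data. Promoter windows came from RefSeq (GRCm38.p6), and all 9 glycogen genes matched. Protein sequences were not analysed here, and 1 listed item is not reported here.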

Additional observations from a re-analysis of the deposited data

How the results depend on the processing

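Fits without any 1 array leave a group with 1 sample, assumed to vary like the other, and called 0 of all 45037 probe sets and 0 of all 18193 genes, so their counts of 0 say nothing about single calls. The 18 glycogen probe sets gave 7 calls, 11 with a variance trend, 3 with the 1.5-fold rule, 0 with the replicate block and 0 to 0 without any 1 array. The 9 glycogen genes gave 7 calls, 4 with dim genes left out (mean level under the median of all genes, 5 remained), 4 with the replicate block, 2 with the 1.5-fold rule and 0 to 0 without any 1 array. The 27 other glycogen genes gave 5, 10 with dim genes left out (13 remained), 3 with the mean of probe sets, 9 with a variance trend, 2 with the block, 1 with the 1.5-fold rule and 0 to 0 without any 1 array. At an unadjusted p under 0.05 limma gave 5 to 7 of the 9 glycogen genes and 4 to 8 of the 27 others without any 1 array, beside 5147 to 5768 of all 18193 genes, and 9 of the 18 glycogen probe sets with the block, beside 13586 of all 45037, of which 0 passed adjustment. The labels give same-numbered arrays a common replicate number but do not say whether they were handled together. The correlation of their deviations over all probe sets (0.0561) cannot settle this. The block cannot move a change in this balanced layout. Zfp322a (-1.465) had an adjusted p of 0.0523 with the replicate block and ran from -1.665 to -1.265 without any 1 array (adjusted p from 0.110 to 0.145). Pygl ran from -1.595 to -1.375 without any 1 array. The synthesis minus breakdown difference of 0.563 became 0.555 with quantile normalization applied again, 0.174 with dim genes left out (Pygl and Gbe1 among them), 0.597 with the mean of probe sets, 0.608 without cross-hybridizing ones, 0.272 without Pygl, 0.346 without Gbe1 and 0.055 without both. Signs turned for Phka1 (0.02 with array centring, 0.019 with quantile normalization, -0.025 to 0.005 without any 1 array), Pgm2l1 (-0.048 with the mean of probe sets) and the dimmer Ppp1r3c probe set (-0.065 to 0.005 without any 1 array). The cause of these moves was not tested.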
